A study of Saccharomyces cerevisiae with 6 samples.

Results

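The 5′ external transcribed spacer, ETS1, is the first part of the 35S gene that RNA polymerase I (Pol I) transcribes in *Saccharomyces cerevisiae*. Its members here are positions 1 to 700 of the gene, chosen by coordinate alone, out of 6858 positions measured from the transcription start to beyond the terminator. NET-seq reads the 3′ ends of nascent RNA bound to the polymerase. Each read is therefore taken to mark the last nucleotide that an engaged Pol I had added. Any 3′ ends of RNA cut during processing were not told apart from these. Libraries were made from 3 wild-type (WT) cultures and 3 cultures of a strain with a complete deletion of *SPT4* (*spt4△*), which encodes a small subunit of the conserved elongation factor Spt4/5. Both strains carry an HA tag on the Pol I subunit Rpa135, through which the polymerase was immunoprecipitated, and both were grown at the same temperature to the same cell density. They also differ in other parts of the genotype. In the mutant, *SPT4* was replaced with *HIS3* and the tag is marked with *URA3*. In WT, the tag is marked with *TRP1*, and the chromosomal *RPA190* was replaced with *HIS3* and supplied on a plasmid. The table holds no values for *SPT4* itself, so the strains were known from their labels only.

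The 35S transcript carries the 18S, 5.8S and 25S ribosomal RNAs between spacers that are removed during processing. As background, ETS1 serves as the platform on which the first pre-ribosomal proteins and the U3 small nucleolar RNA assemble while the polymerase is still transcribing. It is cut near its 3′ end at a site called A0 and at the 18S boundary at a site called A1, and its fragments are then degraded. None of its sequence is kept in the ribosome.

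In the R64 assembly, ETS1 is encoded by the minus strand of chromosome XII, at 466870 to 467569 in the gene copy RDN37-2 and at 457733 to 458432 in RDN37-1. It is annotated as a noncoding spacer. The bases listed in the deposited table differed from either copy at 0 of 6858 positions, and the authors added the counts of the copies. None of the 671 stretches of 30 bases that end within ETS1 occurs anywhere else in the assembly (0 of 671). The spacer begins and ends with the following RNA sequences, in which the capitals mark position 1 and the first base of 18S, position 701.

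Positions 1 to 60 (chrXII:467510-467569): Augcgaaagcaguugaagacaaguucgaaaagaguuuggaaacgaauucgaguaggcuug
Positions 661 to 701 (chrXII:466869-466909): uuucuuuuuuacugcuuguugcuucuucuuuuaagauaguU

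Occupancy is given in rpm, the reads at a position scaled so that each library sums to 1000000 from position 1 to the terminator T1. ETS1 held 154559 to 309267 reads in the WT libraries and 15603 to 23197 reads in the *spt4△* libraries. A position of ETS1 had a median of 84 to 168.5 reads in WT and of 9 to 13 reads in *spt4△*. The smallest occupancy that counts as detected, 3 reads, was at most 0.541 rpm in WT and at most 9.76 rpm in a *spt4△* library. Such a limit allows for the error of counting alone, and the low end of the profile is therefore much less certain in *spt4△*. Between 2 and 7 positions of ETS1 were at 0 in a WT library, compared to between 30 and 67 in a *spt4△* library. How far the difference in depth adds to the differences between strains was not tested.

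ETS1 held a larger share of the reads in *spt4△* than in WT. Since each library is scaled to its own total, such shares give no absolute number of polymerases on the gene, a limit that the study also states. The spacer held 2.63%, 2.79% and 3.51% of the reads in WT replicates 1, 2 and 3, and 4.81%, 4.96% and 5.08% in the *spt4△* replicates. The lowest *spt4△* library thus lay above the highest WT library, and WT replicate 3 lay apart from the other WT libraries toward *spt4△*. The log2 share was 0.75 higher in *spt4△*, against an SD of 0.22 in WT and 0.039 in *spt4△* (exact permutation test, two-sided as all such tests here, n = 3 per strain, p = 0.1, the smallest p that 3 against 3 can give). Relative to the adjoining 18S, the log2 ratio of ETS1 reads was −3.47, −3.43 and −3.07 in WT and −2.71, −2.70 and −2.66 in *spt4△*, a mean difference of 0.64 without overlap (exact permutation p = 0.1). Relative to the first 900 positions of 18S the mean difference was 0.69, and relative to ITS1, the next spacer, it was 0.45. Neither comparison had overlapping libraries (exact permutation p = 0.1 for each). In each library of *spt4△*, the excess of reads in ETS1 thus also held against the coding region that follows it and against the next spacer.

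The rise in share was spread over the entire spacer. In 7 windows of 100 positions each, every *spt4△* library held a larger share of its reads than every WT library (exact permutation p = 0.1 for each window, Benjamini-Hochberg adjusted p = 0.1 over the 7). The second window, positions 101 to 200, held 0.525%, 0.569% and 0.768% of reads in WT and 1.27%, 1.21% and 1.28% in *spt4△*, which is 2.02 times the WT mean. This was the largest ratio among the windows. The smallest, 1.42, was in positions 401 to 500. The first window, next to the promoter, rose from 0.284% ± 0.053 (SD, n = 3) to 0.425% ± 0.0424 of all reads, a ratio of 1.5, so the excess was not confined to the start of the gene or greatest there.

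**Figure D1:**
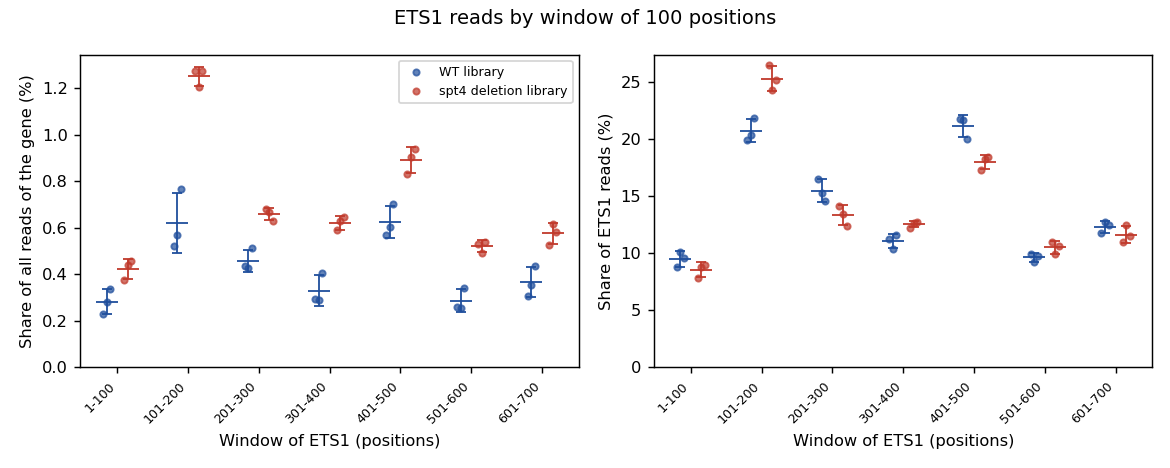
Share of reads in 7 windows of 100 positions along ETS1, as a share of all reads of the gene (left) and of ETS1 reads (right), in percent. Points are the 3 libraries of each strain, and bars are the mean and SD. On the left the *spt4△* libraries lie above WT in each window, and on the right positions 101 to 200 gain and positions 401 to 500 lose.

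Within the spacer, the reads were redistributed to a smaller degree. Positions 101 to 200 rose from 20.7% ± 1.00 (SD, n = 3) to 25.3% ± 1.10 of the ETS1 reads, and positions 301 to 400 from 11.1% ± 0.619 to 12.6% ± 0.278. Positions 501 to 600 went from 9.64% ± 0.358 to 10.5% ± 0.556. These 3 windows had no overlap between strains. Positions 401 to 500 were at 21.2% ± 0.997 in WT and 18% ± 0.643 in *spt4△*, and positions 201 to 300 at 15.5% ± 0.984 and 13.4% ± 0.881, both lower without overlap. In the first and last windows the strains overlapped (exact permutation p = 0.3 for each). The 5 windows without overlap had an exact permutation p of 0.1 each and an adjusted p of 0.14 over the 7 windows. When the median position was compared in place of the sum, positions 201 to 300 and 501 to 600 changed direction, to log2 differences of 0.36 and −0.20, so the direction in these windows rests on their highest positions. The mean position of an ETS1 read was 339, 337 and 336 in WT and 327, 332 and 329 in *spt4△*, a mean difference of −8.21 positions, toward the promoter (exact permutation p = 0.1). Without the top 0.5% of positions of the gene, the difference was −3.13 positions and the strains overlapped (exact permutation p = 0.2).

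Very few reads ended in the first bases of the spacer. Positions 1 to 10 together held 0.399, 1.44 and 1.93 rpm in WT and 2.07, 0 and 0 rpm in *spt4△*, values that correspond to at most 1 read in a *spt4△* library. Position 1 itself had a value above 0 in 1 library, WT replicate 3 (0.113 rpm). Positions 11 to 20 overlapped between strains, with 41.8 to 77.6 rpm in WT against 29.0 to 52.1 rpm in *spt4△*. For positions 21 to 30 the sums reached 99.8, 158 and 218 rpm in WT against 272, 278 and 241 rpm in *spt4△*. Occupancy was therefore close to absent over the first bases in both strains and separated between strains in positions 21 to 30.

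Further along the first window, local rises and falls alternated. Positions 51 to 60 held 459, 473 and 548 rpm in WT compared to 1473, 1757 and 1858 rpm in *spt4△* (exact permutation p = 0.1). In contrast, positions 71 to 80 held 311, 356 and 319 rpm in WT and only 87.1, 194 and 163 rpm in *spt4△*. Positions 91 to 100 also lay lower in each *spt4△* library than in each WT library, at 963 ± 218 and 691 ± 58.9 rpm. Of the 10 bins of 10 positions, 5 were higher and 2 lower in *spt4△* without overlap between the strains.

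At single positions, rises outnumbered falls in the spacer. Any read in any library made a position testable, which left 699 in ETS1. Of these, limma called 255 higher (36.5%) and 104 lower (14.9%) in the mutant, with log2 of rpm + 1 as the measure and a Benjamini-Hochberg adjusted p below 0.05 over the 6848 testable positions of the gene. The share over all positions of the gene was 46.2% called, 25.2% higher and 21.0% lower. All *spt4△* libraries lay above all WT libraries at 273 positions of ETS1 (39.1%) and below them at 117 (16.7%), compared to 30.7% and 25.9% of all positions. The adjoining 18S, at 34.1% higher and 15.7% lower, and 41.2% and 19.9% without overlap, had a like split, so this split is not particular to ETS1. The median log2 change was 0.34 in ETS1 and 0.079 over the gene. The edgeR quasi-likelihood test on the recovered reads called 274 positions of ETS1 higher and 95 lower. Without WT replicate 3, the count of lower positions was 66, a change of over 1.5 times. Positions that lay higher on average added up to 28372 rpm of gain, of which the 10 largest gains made up 26.8%, and those that lay lower added up to −8620 rpm.

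**Figure D2:**
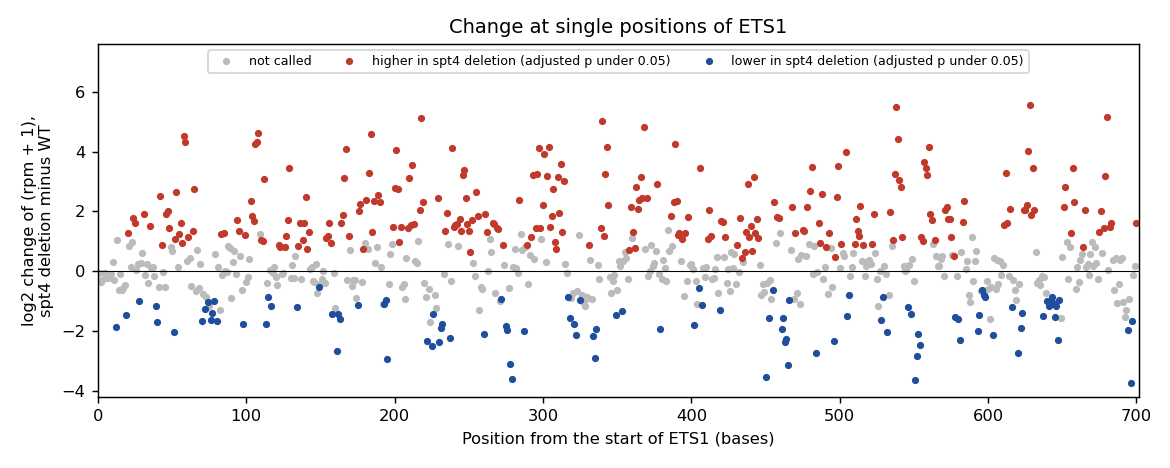
Difference in log2 of rpm + 1 (*spt4△* minus WT, means of 3 libraries) at each tested position of ETS1, against the position from its start. Red and blue points passed an adjusted p of 0.05 in limma as higher (255) or lower (104), and grey points did not. Higher and lower positions alternate along the spacer.

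Calls by window ran from 25 higher and 14 lower in positions 1 to 100 to 46 higher and 14 lower in positions 201 to 300, which had the largest median log2 change of a window (0.85). In the last window 27 were higher and 18 lower, with a median of 0.13. The median change was thus largest in positions 101 to 400 and smallest at either end of the spacer.

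The occupancy profile of ETS1 was uneven in both strains, with the read total dominated by isolated positions. Between 53 and 61 positions held 50% of the ETS1 reads in a WT library, and between 59 and 63 in a *spt4△* library. By the median of the libraries, the 8 highest positions of WT were 98, 102, 163, 232, 336, 405, 437 and 623, and those of *spt4△* were 58, 102, 106, 107, 166, 405, 437 and 627, in order along the spacer, so 3 positions were common to both. In WT, the highest position was 232 (chrXII:467338, base U), with 966, 1136 and 1212 rpm in the 3 libraries. In *spt4△* it held 324, 369 and 273 rpm, so the strains were clearly separated, and occupancy fell by 1.78 on the log2 scale (limma, adjusted p = 4.8e-06, standard error 0.14). In *spt4△*, the highest position was 106 (chrXII:467464, base A), with 1609.5, 1909.7 and 2008 rpm. In WT it held 83.8, 90.001 and 117 rpm, and the log2 change was 4.24 (standard error 0.14, adjusted p = 1.66e-08). The leading position of each strain was thus a minor or reduced one in the other. Their surroundings are shown because they hold several of the positions described here, each marked by a capital: 218 and 232 in the first stretch, and 98, 102, 106, 107 and 108 in the second.

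Positions 212 to 252 (chrXII:467318-467358): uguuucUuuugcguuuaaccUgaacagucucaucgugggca
Positions 86 to 126 (chrXII:467444-467484): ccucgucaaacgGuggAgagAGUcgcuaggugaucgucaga

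The second stretch shows how occupancy moved within a few bases. At position 98 (base G), the WT libraries held 439.8, 578 and 699 rpm, more than each *spt4△* library (151, 150.4 and 199 rpm), a fall by 1.76 on the log2 scale (adjusted p = 1.82e-05 from limma). At position 102 (base A), the values were 742, 939.7 and 1460 rpm in WT and 1444, 1224 and 1321 rpm in *spt4△*, which overlapped (log2 change 0.40, standard error 0.21, adjusted p = 0.149). Without WT replicate 3 this position passed the threshold (log2 change 0.67, adjusted p = 0.0142). Only 5 bases downstream, position 107 (base G) held 37.9, 35.5 and 46.4 rpm in WT compared to 801, 809 and 839.7 rpm in *spt4△* (log2 change 4.33, adjusted p = 7.89e-09). The next base, position 108 (base U), held 12.9, 11.7 and 15.1 rpm in WT against 545, 276 and 289.7 rpm in *spt4△* (log2 change 4.64, adjusted p = 4.3e-07). These are the named positions of the stretch and not all of it. Of the bases between them, 100 and 101 were not called, whereas 99 (log2 change 1.22, adjusted p = 0.00229), 103, 104 and 105 were higher, so the change did not follow a single order along the stretch.

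**Figure D3:**
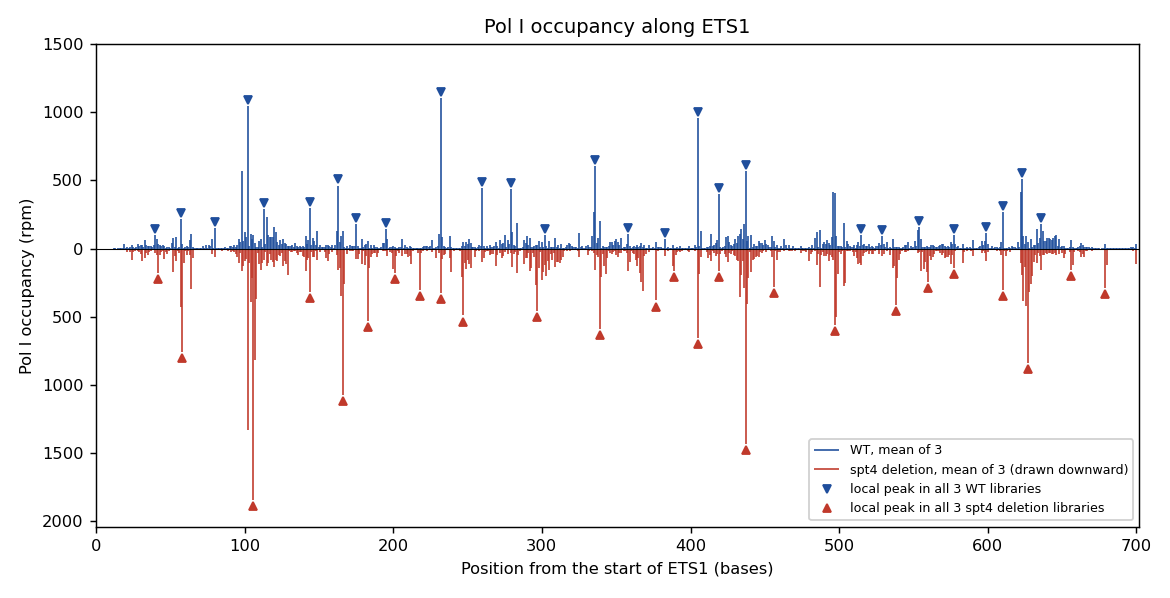
Pol I occupancy in rpm at each position of ETS1, as the mean of 3 libraries, with WT drawn upward and *spt4△* downward. Triangles mark local peaks found in each of the 3 libraries of a strain. The highest WT position is 232 and the highest *spt4△* position is 106, and 7 peaks are marked in both strains.

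Local peaks were defined as positions that were the highest within 10 bases on each side and at least 4 times the median of the 50 positions on each side, in each of the 3 libraries of a strain and with at least 3 reads. By this definition ETS1 had 27 peaks in WT and 26 in *spt4△*. Of these, 7 were shared, which is 25.9% of the WT peaks and 26.9% of the *spt4△* peaks. Since the peaks were chosen on these values, the counts that follow are a description without a test. Of the 20 peaks found in WT only, 12 were called lower, 2 higher and 6 neither in *spt4△*. All 19 peaks found in *spt4△* only were called higher, with a median log2 change of 3.39. Over ETS1, 36.5% of tested positions were called higher and 14.9% lower, and over the gene 25.2% and 21.0%. A peak of 1 strain only was picked for being high in that strain, so these directions follow largely from the choice.

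The peaks of the strains also differed in their last nucleotide. Of the 20 peaks found in WT only, 18 ended on a purine (A or G) and 0 on U. Of the 19 found in *spt4△* only, 11 ended on U and 7 on a purine. With the 7 shared peaks counted in, 3 of 27 WT peaks and 14 of 26 *spt4△* peaks ended on U. Over the 700 positions of ETS1, 28.0% were A, 25.1% were G, 30.1% were U and 16.7% were C, so that no peak found in WT only fell on the most common base.

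Of the 7 shared peaks, position 437 (chrXII:467133, base G) was the highest in *spt4△*. It held 568, 527 and 618 rpm in WT and 1342, 1376 and 1579 rpm in *spt4△* (log2 change 1.32, standard error 0.13, adjusted p = 1.72e-05 from limma). Position 405 (chrXII:467165, base A) held 1059, 976 and 831 rpm in WT and 469, 770.3 and 732 rpm in *spt4△*, without overlap (log2 change −0.57, adjusted p = 0.0257). This call was lost without WT replicate 1, WT replicate 2 or *spt4△* replicate 1 (adjusted p = 0.107, 0.0777 and 0.0756). Position 610 (chrXII:466960, base U), named after its values were seen, held 205, 283 and 313 rpm in WT and 245, 328 and 345 rpm in *spt4△* (log2 change 0.20, adjusted p = 0.36). It lies in the part of the spacer where the A0 site is placed in yeast, although the table marks no cleavage site there. Whether its reads include ends of cut RNA was not tested. The difference between strains at this peak was smaller than the spread within either strain.

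In several places a WT peak and a *spt4△* peak lay side by side. There were 16 pairs within 10 bases of each other, and in 11 of them the *spt4△* peak was downstream, by 1 to 9 bases. In the other 5 it lay upstream. The pairs were made by 14 WT peaks and 13 *spt4△* peaks, so some peaks recur. The *spt4△* peaks 106, 166 and 627 each lay between 2 WT peaks and count once in either direction, as do the WT peaks 175 and 383. The 4 downstream pairs with the highest *spt4△* occupancy are printed with both peak positions in capitals, the WT peak being the first of the capitals in each.

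Peaks 57 and 58 (chrXII:467500-467525): aauucgaguaggCUugucguucguua
Peaks 102 and 106 (chrXII:467452-467480): gucaaacgguggAgagAgucgcuagguga
Peaks 163 and 166 (chrXII:467392-467419): uuuaauugacauGggUugaugcguauug
Peaks 623 and 627 (chrXII:466931-466959): cuucuagcaagaGggaAuaggugggaaaa

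At position 163, WT held 452, 397 and 537 rpm and *spt4△* 193, 155 and 117 rpm, a fall by 1.59 on the log2 scale (adjusted p = 4.08e-05 from limma). At position 166, WT held 89.8, 118 and 169.8 rpm and *spt4△* 921, 1114 and 1185 rpm, a log2 change of 3.12 (adjusted p = 1.26e-06). The first G of this GGGU stretch led in WT, and its U led in *spt4△*. At position 623, WT held 389.9, 557 and 582 rpm and *spt4△* 170.1, 214 and 186 rpm (log2 change −1.40, adjusted p = 4.5e-05). At position 627, WT held 44.5, 58.6 and 46.3 rpm and *spt4△* 606, 941 and 963 rpm (log2 change 4.02, adjusted p = 9.75e-08). Again the strains did not overlap at either base, and they moved in opposite directions 4 bases apart. At position 58, WT held 24.5, 28.5 and 43.8 rpm and *spt4△* 558, 893 and 814 rpm (log2 change 4.52, adjusted p = 1.8e-07). Its neighbour, position 57, was a WT peak but also rose, from 218 ± 14.9 rpm (SD, n = 3) to 429.9 ± 101 rpm (log2 change 0.96, adjusted p = 0.000457 from limma).

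**Figure D4:**
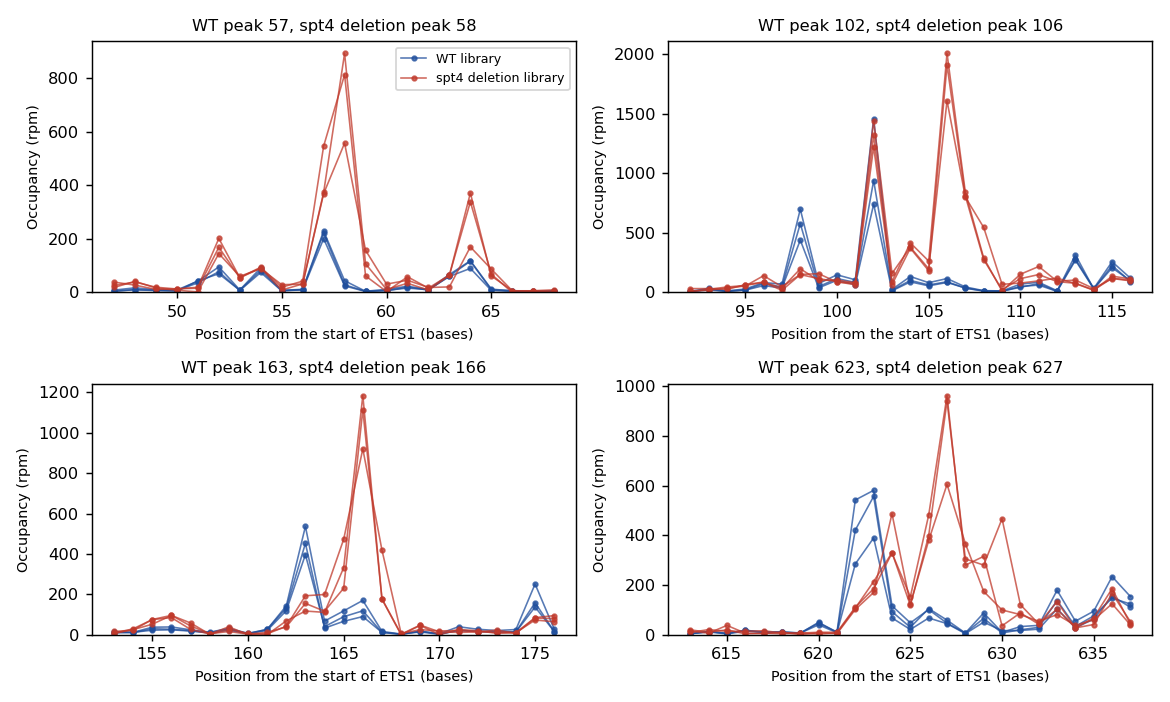
Occupancy in rpm in each of the 6 libraries around 4 pairs of neighbouring peaks in ETS1, against the position from its start. Lines join the positions of one library. In each panel the 3 *spt4△* libraries (red) peak downstream of the WT peak (blue), by 1 base at 57 and 58 and by 3 to 4 bases in the other panels.

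The largest rises are given for called positions without overlap whose mean occupancy lay above that of the median position of ETS1. The 8 with the largest log2 change were 628, 538, 680, 218, 340, 368, 108 and 184. Of these, 7 end on U, the exception being 538 (C). They are not all separate peaks, as 628, 340, 184 and 680 directly follow higher *spt4△* peaks. Those peaks, 627, 339 and 183 (base A) and 679 (base U), had *spt4△* means of 837, 588, 533 and 288 rpm. The positions after them had 317, 210, 144 and 120 rpm, in the same order. Position 108 likewise follows 106 and 107, which had higher occupancy in *spt4△*. Position 628 (chrXII:466942) held 4.19, 6.49 and 6.81 rpm in WT and 367, 305 and 279.9 rpm in *spt4△*. Limma gave a log2 change of 5.56 (adjusted p = 8.24e-08, standard error 0.24). Position 538 (chrXII:467032) held 6.58, 7.03 and 11.7 rpm in WT and 487, 371 and 374 rpm in *spt4△* (log2 change 5.48). Position 368 (chrXII:467202) held 8.58, 9.02 and 12.4 rpm in WT and 315, 294 and 319 rpm in *spt4△* (log2 change 4.84). Position 218 (chrXII:467352) went from 6.58, 6.31 and 11.1 rpm to 375, 269 and 273 rpm (log2 change 5.11). The separation between strains at these positions was fixed by the rule, and with WT means of 5.83 to 9.99 rpm they met the minimum of occupancy through *spt4△* alone. The contexts are printed with the last nucleotide in capitals.

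Position 628 (chrXII:466922-466962): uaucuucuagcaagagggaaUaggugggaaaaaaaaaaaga
Position 538 (chrXII:467012-467052): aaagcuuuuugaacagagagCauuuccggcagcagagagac
Position 680 (chrXII:466870-466910): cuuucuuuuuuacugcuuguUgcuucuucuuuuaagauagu
Position 218 (chrXII:467332-467372): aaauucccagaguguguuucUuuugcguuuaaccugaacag
Position 340 (chrXII:467210-467250): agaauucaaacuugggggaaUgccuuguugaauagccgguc
Position 368 (chrXII:467182-467222): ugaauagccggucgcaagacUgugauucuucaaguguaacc

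The least even among the 8 was position 680 (chrXII:466890), with 1.26 to 2.38 rpm in WT and 212, 88.9 and 58.6 rpm in *spt4△* (log2 change 5.17, standard error 0.45). Position 340 (chrXII:467230) also had a wide spread in *spt4△*, at 315, 171 and 143 rpm, against 3.79 to 7.94 rpm in WT (log2 change 5.01). Position 184 (chrXII:467386) held 2.49, 4.51 and 9.19 rpm in WT and 191, 123 and 117 rpm in *spt4△* (log2 change 4.6, adjusted p = 7.02e-06). Between *spt4△* libraries these rises varied more than the rises at 538 and 368. For the 8 positions, the *spt4△* mean lay 26.6 to 61.5 times above the WT mean in rpm.

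The largest falls, by the same rule, were at positions 195, 279, 335, 450, 484, 551, 554 and 620, in order along the spacer. Of these, 4 end on A and 4 on G, and none on a pyrimidine (0 of 8). Position 279 (chrXII:467291, base A) held 404, 471 and 431 rpm in WT and 29.0, 45.6 and 32.5 rpm in *spt4△*. It lost most of its occupancy, and limma gave a log2 change of −3.59 (adjusted p = 1.5e-07, standard error 0.17). Position 335 (chrXII:467235, base G) held 214, 236 and 366 rpm in WT and 39.4, 34.2 and 29.3 rpm in *spt4△* (log2 change −2.92). Its neighbour 336 (base G), a WT peak, held 507, 537 and 779 rpm in WT and 183, 155 and 130.2 rpm in *spt4△* (log2 change −1.94, adjusted p = 9.83e-06). Positions 335 and 336, which both lay lower, are part of a longer run of G, whose other bases are not described here. Position 195 (chrXII:467375, base A) held 118, 126 and 194 rpm in WT and 22.8, 18.2 and 13.02 rpm in *spt4△* (log2 change −2.95). Position 554 (chrXII:467016, base G) held 159.8, 167 and 148 rpm in WT and 24.9, 31.9 and 26.0 rpm in *spt4△* (log2 change −2.48). These 4 falls rest on more than 3 reads in each library.

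Position 279 (chrXII:467271-467311): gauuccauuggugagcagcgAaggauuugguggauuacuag
Position 335 (chrXII:467215-467255): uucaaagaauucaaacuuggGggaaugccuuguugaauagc
Position 195 (chrXII:467355-467395): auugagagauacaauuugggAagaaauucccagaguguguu
Position 554 (chrXII:466996-467036): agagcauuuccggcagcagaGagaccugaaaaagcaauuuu

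In contrast, the other falls reached the limit of depth. At positions 450 and 551, *spt4△* replicate 3 had 0 reads, and at positions 484 and 620 another *spt4△* library lay under 3 reads. Their WT means were 45.5 to 77.0 rpm, and their direction is given without a size for that reason. The fitted log2 change at 551 ran from −4.82 with a pseudocount of 0.1 to −2.10 with one of 10, against −3.63 and −3.30 at 279, so these falls have no fixed rank. None of the alternatives tried turned the direction or ended the call of any of the 8 rises and 8 falls (0 of 16). The alternatives used the same libraries in which these positions were picked as called and without overlap. This outcome was thus largely set by the choice.

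Over all positions of the spacer, the changes differed by the last nucleotide of the nascent RNA. Of the 211 positions of ETS1 with a U, 114 were higher in *spt4△* (54.0%) and 11 were lower (5.21%), with a median log2 change of 1.16. Among the 195 tested positions with an A, 59 were higher and 52 lower, with a median of 0.082. At G, 42 of 176 were higher and 36 lower (median −0.21), and at C, 40 of 117 were higher and 5 lower (median 0.39). Over all positions of the gene, 35.1% were higher and 14.1% lower at U, 16.7% and 32.2% at A, 21.9% and 18.9% at G, and 27.3% and 18.4% at C. The shares at G in ETS1, 23.9% and 20.5%, were thus near those of the gene, while those at A were 30.3% and 26.7% and those at C 34.2% and 4.27%. The medians of the 4 bases ran from −0.21 to 1.16 in ETS1 and from −0.16 to 0.27 over the gene.

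Counted in reads, U was the last base of 17.0%, 17.6% and 17.2% of ETS1 reads in WT and of 34.6%, 31.1% and 28.9% in *spt4△*. The mean rise of 14.2 percentage points exceeded the SD within either strain (0.341 and 2.89 points, exact permutation p = 0.1, adjusted p = 0.129 over 9 base comparisons). The share of G dropped from 31.4% ± 1.10 (SD, n = 3) to 22.4% ± 0.408, and that of A from 40.2% ± 1.27 to 33.2% ± 3.32. The share of C went from 11.1% ± 0.194 to 12.9% ± 0.435. All 4 bases had separate libraries (exact permutation p = 0.1 for each). In the rest of the gene, the U share moved from 25.5% ± 0.396 to 30.2% ± 0.841, by 4.71 points, and the G share by 0.372 points with overlap. The difference between ETS1 and the rest was tested by library. For U it went from −8.25 ± 0.581 points in WT to 1.27 ± 2.04 points in *spt4△*, and for G from 9.76 ± 0.273 to 0.374 ± 0.603 points, both without overlap (exact permutation p = 0.1, adjusted p = 0.133 over 4 bases). For A, this difference between ETS1 and the rest overlapped (exact permutation p = 0.3).

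**Figure D5:**
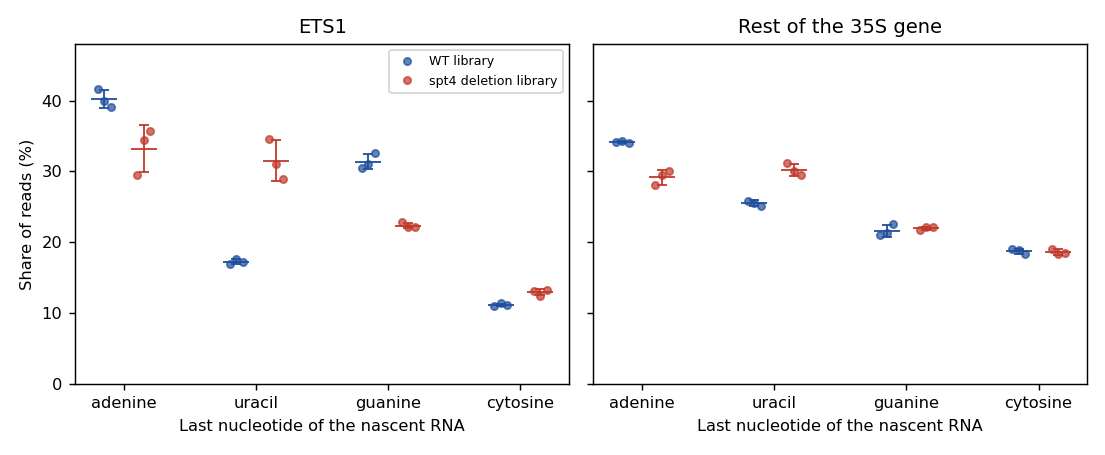
Share of reads in percent by the last nucleotide of the nascent RNA, within ETS1 (left) and in the rest of the 35S gene (right). Points are the 3 libraries of each strain, and bars are the mean and SD. In ETS1 the uracil share lies at 17.0% to 17.6% in WT and at 28.9% to 34.6% in *spt4△*.

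The bases around the last nucleotide, weighted by reads, differed less. The last nucleotide counts as −1 and the next base of the template as +1. At −10 to −1, the stretch that pairs with the template DNA, G made up 28.1%, 28.3% and 29.2% of the bases in WT and 32.7%, 32.8% and 33.1% in *spt4△* (mean difference 4.32 points, exact permutation p = 0.1). G and C together rose by 2.44 points over the same bases, without overlap. This was so although fewer *spt4△* reads ended on a G. At +1 to +10, G and C made up 44.5% ± 0.36 (SD, n = 3) of the bases in WT and 44.8% ± 0.261 in *spt4△* (exact permutation p = 0.5), and G alone 28.6% in both strains (exact permutation p = 1). At −30 to −11, A and U made up 57.4% ± 0.384 and 58.1% ± 0.2, without overlap (difference 0.65 points, exact permutation p = 0.1).

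Stretches of low occupancy were found as the 25-base windows with the lowest mean of the strain median. In WT the lowest was positions 671 to 695, a U-rich stretch before the 18S start, at 4.27, 3.42 and 3.64 rpm per position. The same stretch held 21.5, 21.9 and 17.6 rpm in *spt4△*, of which positions 679 and 680 made up 80.3%. Without these 2 positions, a choice made after seeing the data, it held 3.07, 2.49 and 2.58 rpm in WT and 4.24, 4.26 and 4.53 rpm in *spt4△*, so the rest of the stretch was sparsely occupied in both strains. Its sequence lies within positions 661 to 701 printed above. In *spt4△* the lowest window was positions 1 to 25 (7.3 to 9.21 rpm), followed by positions 66 to 90. The latter held 15.9, 17.5 and 16.1 rpm in WT but 8.3, 12.03 and 10.4 rpm in *spt4△*, so it lay lower in each *spt4△* library. Another WT trough, positions 197 to 221, lay at 10.1 to 15.1 rpm for WT against 48.6 to 55.3 rpm for *spt4△*. Without its 2 highest *spt4△* positions it still held 33.5 to 38.1 rpm in *spt4△* against 10.3 to 15.5 rpm in WT. Limma called 12 of the other 23 positions higher and 0 lower. Over ETS1 it called 255 of 699 tested positions higher and 104 lower, and over the gene 1725 of 6848 higher and 1441 lower. The choice of this trough for low WT values favours higher calls. Since the troughs were picked for low values, these comparisons are a description without a test.

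At the 3′ edge, position 700 (chrXII:466870, base U), the last of the spacer and the base before the A1 cut, held 32.1, 31.9 and 46.3 rpm in WT and 108, 150.4 and 91.1 rpm in *spt4△* (limma, adjusted p = 0.000253, log2 change 1.63, standard error 0.24). Position 701 (chrXII:466869, base U), the first of 18S and the first outside the spacer, held 3.49, 2.16 and 3.29 rpm in WT and 24.9, 11.4 and 3.25 rpm in *spt4△* (log2 change 1.49, adjusted p = 0.056 from limma). The last of these values is 1 read. Position 701 was called higher by edgeR (adjusted p = 0.00267), by edgeR with TMM (0.0033) and by DESeq2 (0.000768). Limma also called it higher with the replicate block (adjusted p = 0.0361) or without *spt4△* replicate 3 (0.00192). Its call thus depends on the tool, on the terms of the model and on that replicate. The boundary therefore falls between a position with a moderate number of reads and a sparse one in both strains. Whether the reads at position 700 include ends of cut RNA was not tested.

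Complementarity to the U3 small nucleolar RNA, which pairs with ETS1 in the early pre-ribosome, was searched as runs of at least 9 bases without G-U pairs against the gene SNR17A, its intron included. A run of 10 bases lay at positions 470 to 479 (chrXII:467091-467100), shown in capitals with 10 bases on each side: uagaggaaacUCAAAGAGUGcuaugguaug. Its positions summed to 64.4, 55.9 and 60.8 rpm in WT and 143, 148 and 117 rpm in *spt4△*. It was a sparsely occupied stretch in both strains, and 4 of its 10 positions were higher and 0 lower in *spt4△* (limma). Among the 20 positions beside it, 6 were higher and 7 lower. In a second run of 12 bases, at positions 650 to 661, 5 were higher and 0 lower, and 2 were higher and 9 lower among the 20 beside it. With 36.5% higher and 14.9% lower over ETS1, the count of higher positions in either run was close to that of the spacer. A match of letters does not show that RNA pairs there.

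Because the ligated linker begins with CA, 8 variable bases and CTCCA, positions after which the gene itself reads in this way were counted. In ETS1, 2 positions, 377 and 600, are followed by CA, any 8 bases and CT, out of 13 in the gene. Of these, position 377, a peak found in *spt4△* only, was higher (log2 change 2.93), and position 600 was not called. No position of ETS1 is followed by CTCCA from +11 (0 of 700). None of the 16 largest changes is followed by CA, any 8 bases and CT (0 of 16). With only 2 such positions in ETS1, that last count could hardly have been other than 0. Whether likeness to the linker adds to the reads was not tested.

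Replicates of a strain resembled each other closely over the 700 positions of ETS1. Spearman's rho was 0.961 to 0.976 between WT libraries and 0.882 to 0.914 between *spt4△* libraries. Across strains it was 0.542 to 0.67, below each pair within a strain. These correlations are over positions of one spacer, which share libraries and are not replicates, so no p is given.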

How the data were processed

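NET-seq was analysed for 3 WT and 3 *spt4△* libraries, grouped by their sample titles. The study describes biological triplicates. The authors removed duplicate reads by their molecular identifiers with fqtrim, trimmed linkers with cutadapt 1.12, aligned with STAR 2.7.1a to R64, counted read ends with bedtools 2.26.0 and added both gene copies. The values deposited by the authors are in RPM, the read count of a position relative to the total up to T1. The authors also deposited means, medians, intervals, coefficients of variation, a ratio and a p-value for each position, none of which was used. Whole reads were recovered from the steps of the rpm values, and 99.97% of 41148 values were whole within 0.001 of a step.

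limma 3.58.1 (lmFit, eBayes with trend, R 4.3.3) was fitted to log2 of rpm + 1 over 6848 positions, with strain as the only term, no filter, and an adjusted p under 0.05. Alternatives used edgeR 4.0.16 and DESeq2 1.42.0 on recovered reads. Values with 1 number per library were compared with exact permutation tests. Python 3.11.15 with numpy 2.4.6 and pandas 2.3.3 was used.

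Named positions are the 8 highest of each strain, the 8 largest rises and falls among called positions without overlap and above the ETS1 median in mean occupancy, both ends, and position 701, whereas peaks of 1 strain were too many to name each. The members, windows and sequence features were chosen with earlier results of these data known. The labels give no sequencing run, so no batch could be examined.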

Additional observations from a re-analysis of the deposited data

How the results depend on the processing

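The share of ETS1 (log2 difference 0.66 to 0.87 with 1 library left out) and its ratio to 18S (0.56 to 0.76), to the first 900 positions of 18S (0.61 to 0.82) and to ITS1 (0.43 to 0.49) kept their direction, the last reaching 0.55 by the median over positions. Same-numbered replicates did not deviate together (r = 0.0114, 0.0212 and −0.0526), so the numbers were not taken to pair samples. With the replicate block, limma called 252 positions of ETS1 higher and 106 lower, and the log2 difference of the share stayed at 0.75 (exact sign-flip permutation p = 0.25, the smallest possible). The block changed 1 call among the named positions, at 701 (adjusted p = 0.0361). Counts with 1 library left out were 214 to 268 higher and 66 to 111 lower. When libraries were scaled to their median positions, the median of the gene moved from 0.079 to −0.049, and 241 positions were higher and 118 lower. Without the top 0.5% of positions, the centre of reads shifted by −3.13 positions, and the share differences were 2.46 points for C as the last base, 1.92 for G and C at −10 to −1 and 3.53 for G there. Without the largest changes they were −7.52 for G as the last base, 1.09 for C and 2.98 for G and C at −10 to −1, and 1 window in place of 2 was lower within ETS1. Windows shifted by 50 positions gave 1 higher of 6 windows within ETS1, and windows of 50 positions gave 5 higher and 6 lower of 14. Leaving out 1 library gave shifts of −9.45 to −6.99 positions, and −8.3 to −5.14 points for A, 12.7 to 15.6 for U, −9.47 to −8.41 for G and 1.66 to 2.05 for C. At −10 to −1 it gave 2.29 to 2.54 points for G and C and 4.1 to 4.66 for G, at +1 to +10 it gave 0.059 to 0.41 and −0.33 to 0.23, and at −30 to −11 it gave 0.43 to 0.8. Windows without overlap then numbered 7 of all reads, and 3 higher and 2 to 3 lower within ETS1. By the median over positions, windows 201 to 300 and 501 to 600 within ETS1 reversed (0.36 and −0.20). Position 1, at 1 read in 1 library, reversed in DESeq2 (3.25) and ranged from −0.0775 to 0 with 1 library left out. Shared peaks numbered 4 at 6 times the surrounding median and 12 within 5 bases on each side. The mean correlation of *spt4△* libraries was 0.897 by Spearman's rho and 0.876 by Pearson's r on log2 values. Depth limits the low end in *spt4△*, where the median position held 9 to 13 reads.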

Other observations

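The neighbours of the last nucleotide in ETS1 were counted after the values were seen, as a description without a test. For comparison, limma called 36.5% of ETS1 positions and 25.2% of all positions of the gene higher in *spt4△*. By the base before it, U was higher at 60.2% of 93 positions after a purine and at 49.2% of 118 after a pyrimidine, and by the base after it at 51.2% of 86 positions before a purine and at 56% of 125 before a pyrimidine. A was higher at 33.6% of 128 positions after a purine, 24.2% of 66 after a pyrimidine, 20.9% of 129 before a purine and 48.5% of 66 before a pyrimidine. G was higher at 32.3% of 96 positions after a purine, 13.8% of 80 after a pyrimidine, 16.8% of 95 before a purine and 32.1% of 81 before a pyrimidine. C was higher at 37% of 54 positions after a purine and 31.7% of 63 after a pyrimidine. Before a purine C was higher at 23.3% of 60, and before a pyrimidine at 45.6% of 57. Lower positions outnumbered higher ones at A after a pyrimidine (28.8% lower) and before a purine (31.0% lower). The same held at G after a pyrimidine (17.5% lower) and before a purine (27.4% lower), and in no other class listed.

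The profiles of the strains were also compared after moving one along the other, a description chosen after the values were seen. The log2 values were taken relative to their moving average of 51 positions, over 680 positions of ETS1, and neighbouring positions are not independent. Without a shift, r between a WT and a *spt4△* library was 0.436 to 0.575. With the *spt4△* profile read 1 base downstream of WT, r was 0.281 to 0.322 over the 9 pairs, whereas 1 base upstream it was −0.0402 to 0.0514. At 2 bases downstream it was 0.159 to 0.218, and at 2 bases upstream −0.00247 to 0.103. Between libraries of one strain, each pair was taken in both orders. Like values in either direction were thus set by the procedure and are no control for the direction. At 1 base downstream, r was 0.243 to 0.289 in WT and 0.357 to 0.47 in *spt4△*. At 1 base upstream, r was 0.245 to 0.291 in WT and 0.358 to 0.472 in *spt4△*.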
